A study of Mus musculus with 10 samples.

Results

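The genes described here are the immunoglobulin genes expressed in the jejunum of 10 mice, measured by bulk RNA sequencing. Members were the rows with a mean normalized read count of at least 10 over the 10 mice whose name begins with Ighv, Igkv or Iglv, or is a heavy or light chain constant gene or Jchain. Of the 45707 rows in the table, 362 were immunoglobulin V or constant rows or Jchain, 229 of these had a read, and 100 met the minimum. The 100 members were 44 Ighv genes (heavy chain variable), 44 Igkv genes (kappa variable), Iglv1 (lambda variable) and 11 genes in the remaining class, namely Igha, Ighm, Ighd, Ighg1, Ighg2b, Ighg3, Igkc, Iglc1, Iglc2, Iglc3 and Jchain. The rule used measured values, so the level of these genes is a description and not a finding. The values just inside the minimum were 10.1 for Ighv5-4, 10.5 for Igkv9-124 and 10.6 for Igkv12-41, and those just outside were 9.998 for Ighv1-84, 9.92 for Igkv3-5 and 9.18 for Ighv1-5. The IgG2c gene Ighg2c, at a mean of 5.90, was the 1 constant gene of the rule left out.

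The study compared 5 Vil-Cre mice, which carry Cre driven by the villin promoter in intestinal epithelium, with 5 Vil-Cre:NDI1 mice, which carry the same Cre and a lox-stop-lox copy of the yeast NADH dehydrogenase NDI1 at ROSA26. All were male littermates, and the mice were 8 to 12 weeks old. Every mouse was fasted for 16 to 18 h and received a gavage of water 1 h before jejunum was taken, so no drug was given in either group. Each library was 1 mouse. The Cre acts in epithelium, and plasma cells are not epithelial cells.

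Plasma cells of the gut lie in the lamina propria and secrete mainly IgA. A heavy chain is made from a V, a D and a J segment joined to a constant gene, and a light chain from a V and a J segment joined to a kappa or lambda constant gene. IgA units are held together by the J chain, and the joined antibody is carried through the epithelium by the polymeric immunoglobulin receptor. Each B cell rearranges its own V genes, and its plasma cell progeny carry the same rearranged genes, so that the reads of V genes depend in part on which clones are present. Reads of a rearranged gene were mapped to the genome, where V, D and J segments lie apart.

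The V genes are near copies of each other, and the coding sequences below show how few bases set apart genes that are described separately in the next paragraphs. They were read from the GENCODE M21 transcripts of the GRCm38 build, are written 5′ to 3′ on the coding strand, and are cut to the first 300 bases of the aligned coding sequence. In the second gene of each pair, capitals mark the bases that differ from the first. Igkv6-23 (chr6:70260409-70260955, minus strand) was the highest kappa V gene in every mouse, and Igkv6-13 (chr6:70457501-70458036, minus strand) was the member with the smallest p between genotypes. Ighv1-26 (chr12:114788372-114788805) and Ighv1-19 (chr12:114708648-114709135), both on the minus strand, were the leading heavy V genes of 2 different mice.
Igkv6-23: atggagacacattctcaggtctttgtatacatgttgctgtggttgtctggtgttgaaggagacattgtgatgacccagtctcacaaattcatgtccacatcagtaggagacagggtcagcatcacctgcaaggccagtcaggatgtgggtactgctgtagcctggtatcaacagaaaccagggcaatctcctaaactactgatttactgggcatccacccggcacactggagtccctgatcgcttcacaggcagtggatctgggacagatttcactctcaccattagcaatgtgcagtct
Igkv6-13: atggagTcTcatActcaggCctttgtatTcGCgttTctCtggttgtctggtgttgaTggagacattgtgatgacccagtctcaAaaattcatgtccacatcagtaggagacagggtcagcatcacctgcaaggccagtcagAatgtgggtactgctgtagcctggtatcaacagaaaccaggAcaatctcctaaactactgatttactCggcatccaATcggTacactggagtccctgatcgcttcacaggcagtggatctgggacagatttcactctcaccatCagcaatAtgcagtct
Ighv1-26: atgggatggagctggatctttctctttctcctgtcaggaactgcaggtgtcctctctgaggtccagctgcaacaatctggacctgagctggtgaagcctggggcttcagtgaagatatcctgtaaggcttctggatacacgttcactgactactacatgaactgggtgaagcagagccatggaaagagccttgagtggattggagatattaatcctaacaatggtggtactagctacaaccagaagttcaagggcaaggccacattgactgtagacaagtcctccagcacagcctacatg
Ighv1-19: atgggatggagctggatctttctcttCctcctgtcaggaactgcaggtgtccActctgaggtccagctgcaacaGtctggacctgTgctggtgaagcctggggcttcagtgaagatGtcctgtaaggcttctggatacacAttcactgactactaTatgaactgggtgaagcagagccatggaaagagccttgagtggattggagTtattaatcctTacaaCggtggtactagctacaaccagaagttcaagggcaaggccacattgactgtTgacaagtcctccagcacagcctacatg
Igkv6-13 differed from Igkv6-23 at 21 of 347 aligned coding bases (93.9% identity), 19 of them in the stretch shown, and Ighv1-19 differed from Ighv1-26 at 13 of 351, of which 11 are shown. Among the 88 Ighv and Igkv members, the median identity to the nearest other member was 94.5%, and 41 had a member at 95% or more. A stretch of 100 bases, the length of a read, was found unchanged in another V gene at 1 or more positions of 37 of the 89 V members. For Igkv6-23 and Ighv1-19 no such stretch existed. It made up 4.23% of the stretches of Igkv6-13, all shared with Igkv6-14, and 7.94% of those of Ighv1-26. The share was 33.6% for Igkv5-43, shared with Igkv5-45, and 90.3% for Ighv1-62-2, shared with Ighv1-71. Values of these last 2 genes are therefore uncertain. Only exact matches between reference sequences were counted. A read that differs from the reference, or holds only part of a V gene, could still fit a near copy of any V gene.

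Depth ranged from 10145705 to 12371530 reads on genes per library. The NDI1 row held 0 to 1.00 normalized reads in the Vil-Cre mice and 982 to 2575 in the Vil-Cre:NDI1 mice, and it was the 1 gene called between genotypes among 14301 tested (limma, adjusted p = 7.14e-09). Some libraries stood apart. In Vil-Cre 5, all 12 B cell markers were at their highest, with a sum of 2582 against 33.7 to 128 in the other 9 mice, and the sum of 9 enterocyte markers was 351866 against 478983 to 672497. Xist, a transcript of the inactive X chromosome, was 146 in Vil-Cre:NDI1 1, 76.7 in Vil-Cre 5 and 36.4 in Vil-Cre 4, and 0.979 to 7.01 in the other mice, although all mice were males. The Y-linked genes Kdm5d, Uty, Ddx3y and Eif2s3y were read in all 10 mice, at 132 or more, those 3 included. Adipoq, an adipocyte gene, read 0 in Vil-Cre:NDI1 1, 1.01 in Vil-Cre 4 and 7.77 in Vil-Cre 5, against 48.3 to 164 in the other 7. The part of these differences in the results was not tested.

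The IgA heavy chain and the kappa light chain gave most constant region reads in every mouse. Igha (chr12:113254830-113260236), the IgA heavy chain constant gene, read 16734, 10699, 13988, 21135 and 7927 normalized reads in Vil-Cre mice 1 to 5, and 30739, 8593, 7731, 14546 and 9294 in Vil-Cre:NDI1 mice 1 to 5. Vil-Cre:NDI1 1 was the highest and Vil-Cre 4 the next, and the ranges of the genotypes overlapped. Igkc (chr6:70726435-70726966), the constant region of most mouse light chains, read 5803, 3788, 4379, 7226 and 3359 in the Vil-Cre mice and 11701, 2997, 2530, 5365 and 3104 in the Vil-Cre:NDI1 mice. Jchain (chr5:88519809-88527891) read 2451, 1739, 2258, 3439 and 1394, and 4383, 1440, 1307, 2544 and 1559, in the same order. The 3 genes ranked the mice alike at the top, with Vil-Cre:NDI1 1 and Vil-Cre 4 first and second in each. The sum of the 100 members was 12998 to 55139 per mouse, which was 0.117% to 0.494% of a library. In bulk tissue, fewer plasma cells and less RNA per plasma cell cannot be told apart.

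**Figure D1:**
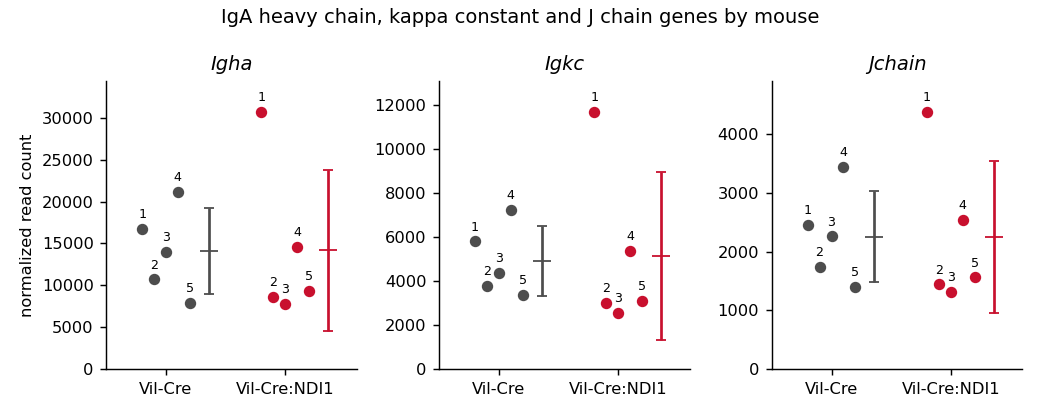
Normalized read counts of Igha, Igkc and Jchain in each mouse, on linear axes from 0; numbers beside points are mouse numbers, and the bar beside each group is the mean with its SD (n = 5). Vil-Cre:NDI1 1 is the highest mouse in all 3 panels, at 30739 for Igha, and the points of the genotypes overlap.

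Igkc and Jchain kept narrow ratios to Igha while the level of all 3 genes varied between mice. Igkc ran at 0.313 to 0.424 reads per read of Igha and Jchain at 0.143 to 0.176, while Igha itself spanned 7731 to 30739. The coefficient of variation of Igha over the 10 mice was 0.515, above that of 89.2% of the 14301 genes tested, whose median was 0.204. For genes with a mean of at least 1000 the median was 0.125. Per kilobase of exon, the mean level was 9446 for Igkc, 5299 for Igha, 894 for Jchain, 806 for Igkv6-23, 416 for Iglc1 and 310 for Iglv1. Below these came Ighm at 64.4 per kilobase, Ighg2b at 25.9, Ighd at 15.1, Ighg3 at 7.73 and Ighg1 at 7.38. Vil-Cre 5 held 94.1% of the summed value of Ighd, 83.0% of Ighg3, 68.7% of Ighm, 66.0% of Ighg1 and 59.5% of Ighg2b.

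Across the 10 mice, Igha was set against Jchain and 7 genes from the lists, on log2(value + 1), with 8 relations in the family. Jchain followed it with Pearson's r = 0.994 (permutation p = 1e-05, the smallest that 100000 resamples can give, adjusted p = 8e-05) and Spearman's rho = 0.988 (permutation p = 1e-05). Derl3, an endoplasmic reticulum factor of secretory cells, gave r = 0.898 (permutation p = 0.00053, adjusted p = 0.00212) and rho = 0.879 (permutation p = 0.00182). Without Vil-Cre:NDI1 1 and Vil-Cre 4, the 2 mice farthest from the median of Igha, r was 0.985 for Jchain and 0.685 for Derl3 (permutation p = 0.0662, adjusted p = 0.265), with rho = 0.762 for Derl3 (permutation p = 0.0368, adjusted p = 0.147). The relation with Derl3 thus no longer passed the adjusted threshold without both mice. Its r was 0.804 without Vil-Cre:NDI1 1 alone and 0.886 without Vil-Cre 4 alone (permutation tests, adjusted p = 0.0382 and 0.0155). Tnfrsf17, the BCMA survival receptor of plasma cells, was low, with a mean of 5.72 and a range of 1.09 to 11.8 normalized reads. The value of r was 0.672 for Tnfrsf17, with rho = 0.685 (permutation p = 0.0326 and 0.0341, adjusted p = 0.0848 and 0.0792). It was 0.628 for Mzb1, a chaperone of antibody assembly, with rho = 0.673 (permutation p = 0.053 and 0.0396, adjusted p = 0.0848 and 0.0792). Without those 2 mice r fell to 0.353 and 0.195. For Mzb1 the outlying point was Vil-Cre 5, at 74.8 with the second lowest Igha, and without that mouse r was 0.910 (adjusted p = 0.00116).

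The remaining relations did not pass the adjusted threshold of 0.05 with either coefficient. Pigr, which encodes the receptor that carries IgA across the epithelium, gave r = 0.571 and rho = 0.60 (permutation p = 0.084 and 0.0741, adjusted p = 0.112 and 0.0988). Cd3e, a T cell gene, gave r = 0.625 and rho = 0.60 (permutation p = 0.0527 and 0.074, adjusted p = 0.0848 and 0.0988). Xbp1, a transcription factor of secretory cells that epithelium also expresses, gave r = 0.391 and rho = 0.479 (permutation p = 0.263 and 0.167, adjusted p = 0.30 and 0.191). Ms4a1, which encodes CD20 of B cells and is lost in plasma cells, read 236 in Vil-Cre 5 and at most 7.83 elsewhere, and a pooled r for it would rest on that mouse. Without the 2 mice farthest from the median of Igha, r was 0.195 for Pigr, 0.519 for Cd3e and 0.185 for Xbp1. Without Vil-Cre 1, Pigr gave r = 0.733 and rho = 0.817 (permutation tests, adjusted p = 0.0645 and 0.0285), so that rho passed the threshold there. All points share the scaling of their library, and within genotypes, as deviations from the genotype means, r was 0.994 for Jchain and 0.898 for Derl3.

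**Figure D2:**
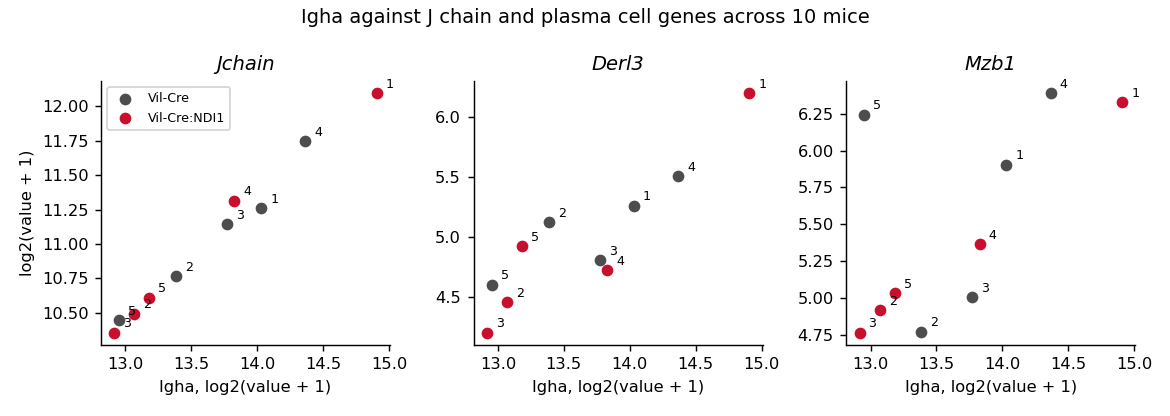
Igha (x axis) against Jchain, Derl3 and Mzb1 (y axes), all as log2(value + 1), with 1 point per mouse and its number beside it. Jchain lies close to a line (r = 0.994), and in the Mzb1 panel Vil-Cre 5 lies apart at the upper left.

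The heavy chain classes separated a single library from the rest. Igha made up 99.2% to 99.6% of the heavy chain constant reads in 9 mice and 81.5% in Vil-Cre 5, or 77.7% there per exonic length. Ighm (chr12:113418558-113422730), the IgM constant gene of unswitched B cells, read 32.7, 47.1, 40.1, 63.7 and 834 in the Vil-Cre mice and 60.8, 44.6, 34.9, 39.2 and 16.4 in the Vil-Cre:NDI1 mice. Vil-Cre 5 stood 13.1 times above the next mouse, and the other 9 lay in a single range. Ighd (chr12:113406604-113416324), the IgD gene expressed with Ighm on naive B cells, read 269 in Vil-Cre 5 and 0 to 3.92 in the other mice. The IgG genes had the same shape, with 412 for Ighg2b against 15.5 to 54.6, 161 for Ighg3 against 0 to 9.68 and 126 for Ighg1 against 0 to 22.2. Of the 6 heavy chain constant members, 5 were highest in Vil-Cre 5 and Igha was not, being the second lowest there.

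The same library carried the markers of B cells and lymphoid follicles. Pax5, the transcription factor of B cell identity, read 624 in Vil-Cre 5 and 0 to 12.7 elsewhere. Cxcl13, the chemokine of B cell follicles, read 120 against 3.01 to 14.1 in the other mice. The counts highest in Vil-Cre 5 were 12 of 12 for B cell markers, 6 of 8 for germinal centre genes, 7 of 13 for genes of IgA transport, homing and survival, 4 of 6 for follicle genes, 5 of 17 for plasma cell genes, 3 of 9 for T cell genes, 2 of 6 for other leukocyte genes and 0 for enterocyte and adipocyte genes. The sum of the IgA list, most of it Pigr, was lowest there, at 21216 against 25329 to 59843. Madcam1, the address molecule of gut venules, was 64.1 there against 7.08 to 15.5. The summed plasma cell list was not at its highest, at 8294 against 6878 to 9530 in the other 9 mice, and several of its genes (Xbp1, Sdc1, Txndc5, Ell2) are also expressed by epithelium. V genes did not follow the 5 heavy chain constant genes that were highest in this library. The summed Ighv and Igkv members were 992 and 1094 there, below the medians of 1102 and 1357 over the 10 mice. Of the 44 Ighv members 3 were highest in Vil-Cre 5, and of the 44 Igkv members 0 were.

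**Figure D3:**
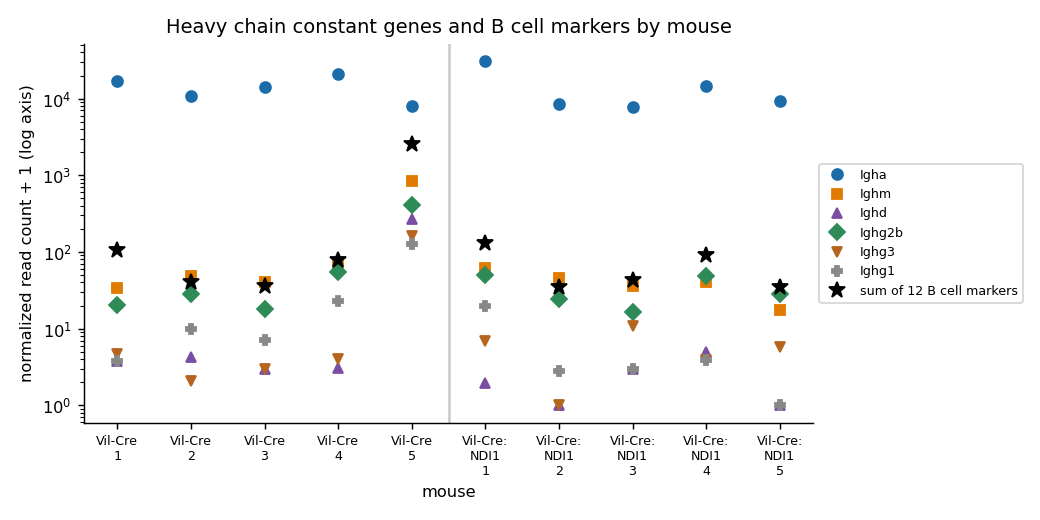
Normalized read counts plus 1, on a log axis, of the 6 heavy chain constant members and of the sum of 12 B cell markers in each mouse. In Vil-Cre 5 Ighm (834), Ighg2b (412), Ighd (269), Ighg3 (161), Ighg1 (126) and the B cell sum (2582) lie above those of the other 9 mice, while Igha does not.

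Light chains were mostly kappa. The lambda constant genes Iglc1, Iglc2 and Iglc3 together held 4.43%, 7.71%, 4.19%, 7.98% and 7.49% of the light chain constant reads in the Vil-Cre mice, and 3.51%, 3.29%, 6.51%, 2.27% and 3.54% in the Vil-Cre:NDI1 mice. The means were 6.36% ± 1.88 and 3.82% ± 1.59 (SD, n = 5), with overlapping ranges. Iglc1 (chr16:19061618-19062071) read 219, 243, 139, 531 and 108 in the Vil-Cre mice and 353, 66.5, 117, 89.1 and 24.7 in the Vil-Cre:NDI1 mice. Iglv1 (chr16:19085017-19085500), the lambda V gene that joins to it, read 136, 132, 56.1, 395 and 36.9, and 247, 30.1, 78.4, 72.5 and 25.8, in the same order. Vil-Cre 4 was the highest mouse for both genes and Vil-Cre:NDI1 5 the lowest. Iglc2 read 40.2, 35.0, 36.1, 61.7 and 87.4, and 46.1, 26.4, 45.5, 23.5 and 68.1. Iglc3 read 10.3, 38.3, 16, 34.4 and 76.7, and 26.5, 9.11, 13.6, 11.8 and 21.1. Both were highest in Vil-Cre 5. The lambda constant genes are similar in sequence, so their reads may be split between them.

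A single kappa V gene led in all mice. Igkv6-23 read 579, 199, 328, 405 and 219 in the Vil-Cre mice and 773, 95.7, 53.3, 162 and 161 in the Vil-Cre:NDI1 mice. Its share of the summed Igkv members was 27.7%, 15.0%, 23.6%, 13.1% and 20.1%, and 19.0%, 12.4%, 9.17%, 8.08% and 20.3%. The ranges of the genotypes overlapped. In 8 mice the 95% Wilson interval of its share lay above that of the second gene. In Vil-Cre:NDI1 4 it did not, with 165 reads (6.97% to 9.34%) against 157 for Igkv6-25 (6.61% to 8.92%), nor in Vil-Cre:NDI1 3, with 55 reads against 46 for Igkv3-2. These intervals cover counting error only. The gene in second place was Igkv8-30 in 2 mice, Igkv3-2 in 2 and a different gene in each of the other 6.

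Heavy V genes had no shared leader. The highest Ighv member was a different gene in each of the 10 mice. In the Vil-Cre mice it was Ighv1-39 (192 normalized reads), Ighv1-53 (83.2), Ighv1-15 (120), Ighv1-26 (257) and Ighv14-2 (96.2). In the Vil-Cre:NDI1 mice it was Ighv1-19 (244), Ighv1-81 (65.6), Ighv1-82 (49.4), Ighv5-17 (122) and Ighv14-3 (75.1). The leaders held 7.11% to 12.9% of the summed Ighv members. In all 10 mice the Wilson interval of the leader overlapped that of the second gene. Overlap of intervals is not a test of the order at the top, and that order was not tested.

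The spread of use over V genes can be put as an effective number, the inverse Simpson index, which is the number of equally used genes that would give the same concentration. For Ighv it was 16.1, 24.6, 17.9, 21.7 and 23.4 in the Vil-Cre mice and 27.0, 21.5, 23.0, 25.7 and 21.2 in the Vil-Cre:NDI1 mice. For Igkv it was 10.1, 15.4, 11.5, 19.5 and 15.0, and 14.7, 19.1, 21.2, 23.7 and 13.2. Vil-Cre 1 and Vil-Cre 3 had the lowest values of both, and the genotypes overlapped in both. The means were 20.7 ± 3.63 and 23.7 ± 2.56 for Ighv, and 14.3 ± 3.68 and 18.4 ± 4.40 for Igkv (SD, n = 5). Reads behind these values numbered 548 to 3500 per mouse for Ighv and 600 to 4160 for Igkv.

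**Figure D4:**
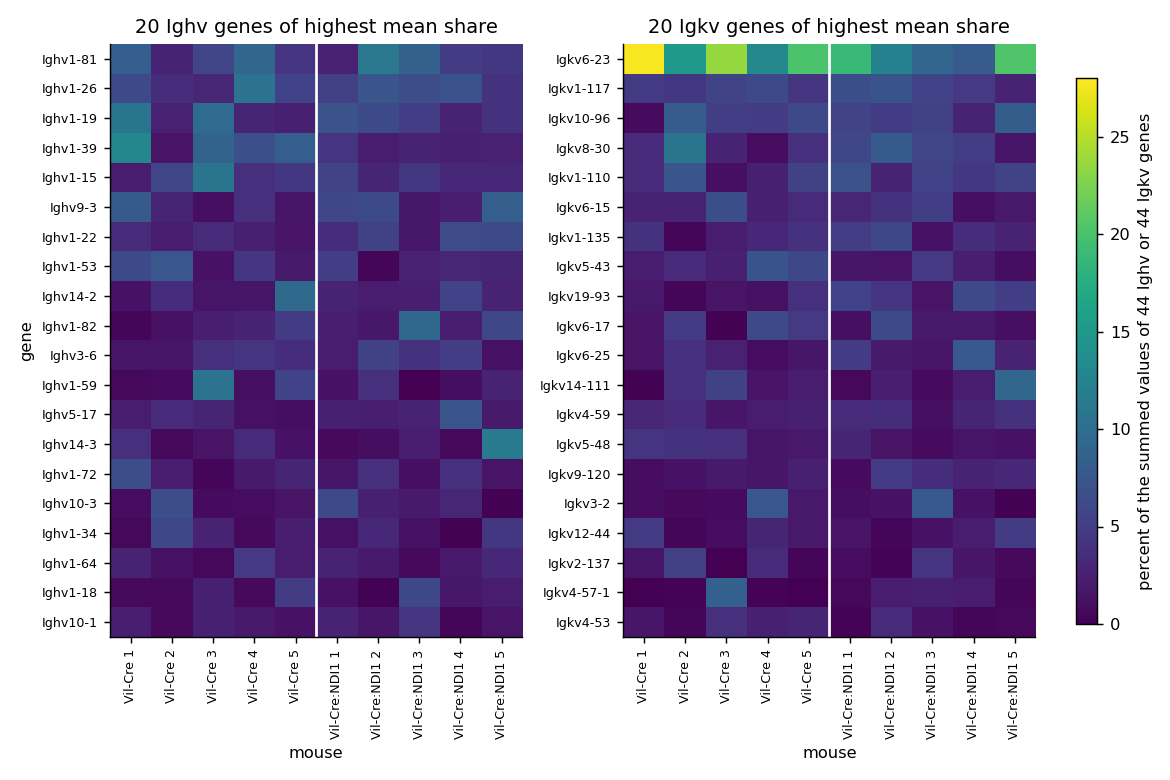
Share of each gene in the summed values of the 44 Ighv members (left) and 44 Igkv members (right) in each mouse, as a colour in percent, for the 20 genes of highest mean share; the white line parts the genotypes. Igkv6-23 forms a bright row through all 10 mice (8.08% to 27.7%), and no Ighv gene does.

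Single V genes varied widely between mice. The share of a V gene in its chain had a median coefficient of variation of 0.81 over the 88 Ighv and Igkv members, where counting error alone gives 0.24 at the same reads. The mice are separate animals, so a spread above counting error is usual and is given as a description. In 14 of the 88, more than 50% of the summed value came from 1 mouse. In 7 of these 14 the other 9 mice averaged under 10, so the gene met the minimum through the 1 high mouse and its concentration there is in part set by the rule. Igkv14-126 (chr6:67896172-67896642) read 149 in Vil-Cre:NDI1 4 (152 reads), 15.7 in Vil-Cre:NDI1 1, 14.1 in Vil-Cre:NDI1 5, 1.01 in Vil-Cre 4 and 0 in the other 6 mice. Ighv1-61 (chr12:115359140-115359572) read 82.3 in the same Vil-Cre:NDI1 4 and at most 5.47 elsewhere. Igkv4-91 read 95.1 in Vil-Cre:NDI1 1 and at most 18.2 elsewhere. Igkv4-57-1 read 119 in Vil-Cre 3, 43.1 in Vil-Cre:NDI1 4 and at most 26.5 in the others. These genes were named after their values were seen. The values also follow each mouse's total, since 37 of the 88 V members had their highest value in Vil-Cre:NDI1 1 and 21 in Vil-Cre 4, but only 7 and 8 their highest share. By value, the remaining 10 peaked in Vil-Cre 4 (Igkv3-2, Igkv6-32, Ighv8-12, Igkv3-7), in Vil-Cre:NDI1 1 (Ighv10-3, Igkv12-46, Ighv1-76, Ighv1-4), in Vil-Cre 1 (Igkv8-19) and in Vil-Cre:NDI1 4 (Igkv17-127). By share, 12 of the 14 peaked in the same mouse, while Igkv3-2 peaked in Vil-Cre:NDI1 3 (7.67%) and Ighv10-3 in Vil-Cre 2 (6.65%).

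Grouped by family, the spread depended on the size of the family. The coefficient of variation of a family's share over the 10 mice was 0.0936 to 0.391 in the 6 families of 4 or more members and 0.347 to 0.997 in the 18 smaller ones, with the highest in Igkv14 (3.78% ± 3.77) and Igkv2 (1.86% ± 1.81). The 26 members of Ighv1, the largest heavy family, held 65.2% ± 6.10 of the Ighv sum (SD, n = 10). Ighv5 with 6 members held 8.40% ± 3.28, and Ighv14 with 3 held 7.35% ± 3.63. Among kappa genes, the 6 members of Igkv6 held 28.4% ± 5.72, the 4 of Igkv1 13.8% ± 2.70 and the 8 of Igkv4 10.7% ± 3.23. In 1 of the 24 families, Igkv5, the shares of the genotypes did not overlap, at 7.14% to 10.2% in the Vil-Cre mice and 3.53% to 5.50% in the Vil-Cre:NDI1 mice. The 0.699% of all genes tested that did not overlap is a rate for values of single genes. No such rate was computed for shares of families, so the 2 cannot be compared. This family was singled out after its values were seen, and no test was made on it. Its 3 members were Igkv5-43, Igkv5-48 and Igkv5-39, whose values overlapped between genotypes for each gene alone.

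V reads were fewer than constant reads. The sum over Igkv members was 0.230 to 0.427 of Igkc, and the sum over Ighv members 0.0681 to 0.113 of the heavy chain constant reads. These ratios of reads depend on gene length. Per kilobase of exon they were 0.325 to 0.604 for kappa and 0.495 to 0.825 for heavy chains. Both ratios were lowest in Vil-Cre:NDI1 2, 3 and 5, and counting every V row with a read left those mice the lowest 3, at 0.261 to 0.297 for kappa and 0.0746 to 0.0817 for heavy chains. The members held 83.7% to 93.3% of all Ighv reads and 87.0% to 95.3% of all Igkv reads. Genotypes overlapped in both ratios.

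No member was called between the genotypes with limma at an adjusted p of 0.05, where 0.00699% of the genes tested were called. Of the 100 members, 78 passed the filter of 10 in at least 5 mice and were tested, and 22 were not, among them Ighd, Ighg1 and Ighg3. At an unadjusted p under 0.05 there were 3 members, or 3.85%, against 4.24% of all genes, and all 3 were lower in Vil-Cre:NDI1 (2.11% of all genes). edgeR on the recovered reads called 0 members as well, with 4 at an unadjusted p under 0.05. Igha had a log2 fold change of -0.12 (SE 0.38, 95% interval -0.94 to 0.70, limma adjusted p = 0.998), Igkc of -0.13 (SE 0.38) and Jchain of -0.10 (SE 0.33), so that a change beyond 2-fold lay outside the interval for these 3 genes and for Igkv9-120. This bound was narrow. Of 19 other limma settings, the interval stayed inside 2-fold in 13 for Igha, 11 for Igkc and 18 for Jchain, and its lowest bound was -1.14, -1.16 and -1.01, each without Vil-Cre 5. For Igkv9-120 it stayed inside in 10 of 18. Ighm at -1.13 (SE 0.77) and Ighg2b at -0.63 (SE 0.75) rest on Vil-Cre 5. Without that mouse the mean of Ighm was 45.9 ± 13.2 (SD, n = 4) against 39.2 ± 16.1 (SD, n = 5), and that of Ighg2b 29.7 ± 17.2 against 32.4 ± 14.8.

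Igkv6-13 had the smallest p. It read 29.0, 14.2, 34.1, 37.4 and 11.7 in the Vil-Cre mice and 4.90, 2.73, 1.94, 0 and 0 in the Vil-Cre:NDI1 mice. Every Vil-Cre mouse was above every Vil-Cre:NDI1 mouse, and it was the only member of the 78 for which the groups did not overlap, while 0.699% of all genes did not. Because it reached 10 in all Vil-Cre mice and in none of the others, it passed the filter only through the group in which it was high. Its means were 25.3 in the Vil-Cre mice and 1.91 in the Vil-Cre:NDI1 mice, so it met the member minimum of 10 in the same way. The log2 fold change was -3.38 (SE 0.59, limma adjusted p = 0.465), and since 2 mice were at 0 its size depends on the pseudocount. DESeq2, which works on whole reads, gave it an adjusted p of 9.16e-05, and Igkv6-13 was then the 1 member called, where 0.183% of genes with an adjusted p were called. Without Vil-Cre 3 and Vil-Cre 4, in 8 libraries, DESeq2 called Igkv6-13 and Igkv4-57-1, 1 lower and 1 higher in Vil-Cre:NDI1, where 1.6% of genes were called. The value of Igkv6-13 was 4.90 in Vil-Cre:NDI1 1, the mouse with the highest sum of Igkv members. The part of that sum in the values of Igkv6-13 was not tested.

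The next members by p showed overlapping groups. Ighv1-62-2, whose reads are mostly shared with Ighv1-71, read 18.7, 13.1, 40.1, 3.03 and 18.5 in the Vil-Cre mice and 0, 13.7, 2.90, 11.8 and 0 in the Vil-Cre:NDI1 mice (log2 fold change -2.05, SE 0.89, limma adjusted p = 0.998). Igkv4-53 read 35.5, 4.38, 52.1, 75.8 and 32.1, and 11.8, 25.5, 7.75, 8.81 and 4.70 (-1.46, SE 0.67). Igkv5-43 read 45.8, 43.8, 34.1, 224 and 66.0, and 67.6, 11.8, 27.1, 47.0 and 8.22 (-1.33, SE 0.63). Ighv1-39 read 192, 16.4, 99.2, 164 and 82.6, and 146, 12.8, 14.5, 41.1 and 16.4 (-1.53, SE 0.76). In each of these genes at least 1 Vil-Cre:NDI1 mouse exceeded the lowest Vil-Cre mouse.

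**Figure D5:**
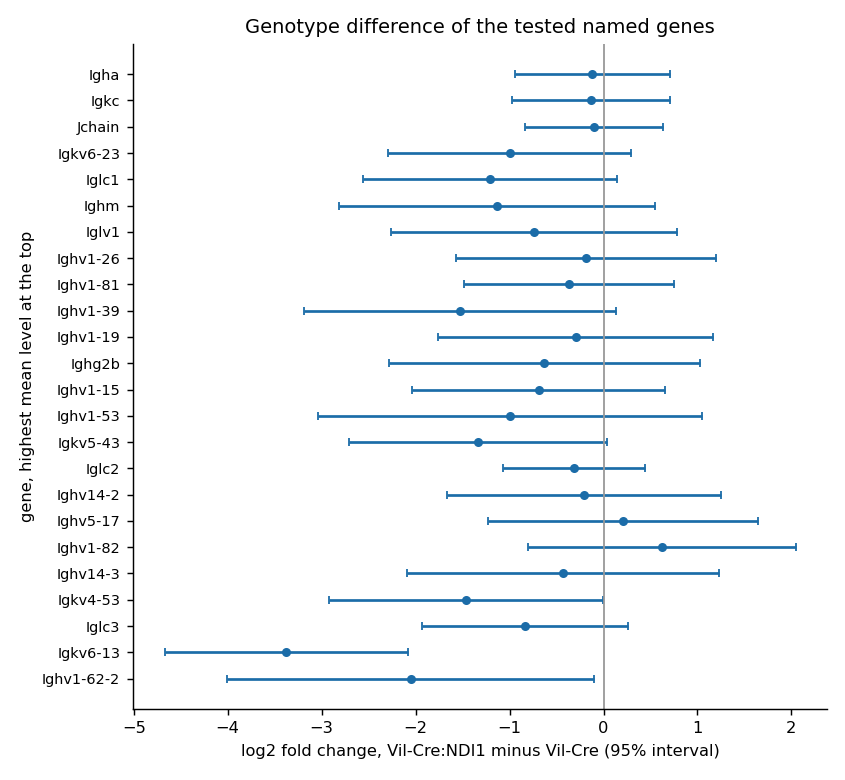
Log2 fold change, Vil-Cre:NDI1 minus Vil-Cre, of the 24 tested named genes with its 95% interval from limma (x axis), ordered by mean level with the highest at the top. Igha, Igkc and Jchain lie near 0 with intervals inside 1 log2 unit, and Igkv6-13 at -3.38 lies farthest from 0.

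Over the tested members, 55 of 78 fold changes were below 0 (70.5%) where 48.8% of all genes were, with a median of -0.31 against 0.0052. With a filter on the mean alone, which keeps all 100 members, 69 were below 0 and the median was -0.36 against 0.0042. The members share mice and are not independent, and single mice moved this median. In the 8 libraries without Vil-Cre 3 and Vil-Cre 4 it turned in direction, at 0.24 with edgeR, and 33 of 78 were below 0. With limma it was -0.034 without Vil-Cre 4 and -0.73 without Vil-Cre:NDI1 1, the highest Igha mice. The summed level of the 100 members was 25397 ± 8643 in the Vil-Cre mice and 24943 ± 17686 in the Vil-Cre:NDI1 mice (SD, n = 5). Most V genes could not be bounded, with a median width of the 95% interval of 3.31 log2 units against 0.80 over all genes, and the interval lay inside 2-fold for 4 of 78 members and 79.6% of all genes.

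The related genes fixed as lists gave no call either with limma, with 0 genes past the adjusted threshold in either direction in each list. The numbers tested were 16 of 17 plasma cell genes, 2 of 12 B cell genes, 4 of 8 germinal centre genes and 12 of 13 genes of IgA transport, homing and survival. They were 2 of 7 follicle genes, 8 of 9 T cell genes, 9 of 9 enterocyte genes, 4 of 5 adipocyte genes and 4 of 6 genes of other leukocytes. At an unadjusted p under 0.05 there were 2 germinal centre genes, 1 plasma cell gene and 0 in the other lists. The median log2 fold change was -0.15 for the plasma cell list and -0.17 for the IgA list. Pigr read 20280, 24629, 34051, 53357 and 16220 in the Vil-Cre mice and 40822, 28822, 29998, 38034 and 32594 in the Vil-Cre:NDI1 mice. Its lowest value was in Vil-Cre 5 and its highest in Vil-Cre 4, inside overlapping groups. Among the T cell genes, the summed level was highest in Vil-Cre 4 and Vil-Cre:NDI1 1, at 2379 and 2215, against 526 to 2040 in the other mice, and these were the 2 mice with the most Igha. The part of T cells in the level of Igha was not tested.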

How the data were processed

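Jejunum RNA of 5 Vil-Cre and 5 Vil-Cre:NDI1 mice was sequenced in single-end runs of 100 cycles. With nf-core/rnaseq, the authors trimmed reads (trimGalore!), mapped them by STAR against GRCm38 plus NDI1, obtained gene values from Salmon and scaled them in DESeq2. Annotation release and strand setting were not given in the sources used here. The deposited signal values are thus counts divided by a size factor per library. Dividing by the step between low values gave whole numbers, within 0.01, for 100% of genes in all 10 libraries, and these were taken as reads. Because Salmon assigned reads to genes, they may be rounded estimates and not counted reads. Of values of 50 or more, 0.878% to 2.21% were whole as deposited. A count of 3 reads was worth 2.73 to 3.52 normalized reads.

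Because the values are not raw counts, genotypes were compared by limma (3.58.1, R 4.3.3) with a variance trend on log2(value + 1), a scale that understates changes of low genes. Genes needed 10 or more in 5 or more mice, p-values were adjusted by Benjamini-Hochberg over 14301 genes, and 0.05 was the threshold. Alternatives were DESeq2 (1.42.0) and edgeR (4.0.16) on reads recovered from the table, pseudocounts of 0.1 and 8, other filters and scalings, array weights, the replicate number as a block, and leaving out each mouse. Correlations used two-sided permutation tests with 100000 resamples. Fits were tested on simulated data. Coordinates and exon lengths came from GENCODE M21, which held all 100 members.

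Groups were taken from the labels. Genes named in full were the constant members and Jchain, Iglv1, the highest Ighv and Igkv member of each mouse, the 5 members of smallest p, and 3 genes on each side of the minimum of 10. The members and lists were chosen with earlier results of these data known. No 2 libraries of the same genotype agreed within sampling noise, and pairs across genotypes were not compared. Values of some genes of the marker lists are not reported here.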

Additional observations from a re-analysis of the deposited data

Results flagged for a closer look

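A mouse was set apart where its gap to the nearest mouse of its genotype exceeded 0.71 of the range of the 5 mice. Of 66 groups of 5 mice looked at, for 33 measures, 21 met this, where chance gives about 1 in 20 for normally distributed values. The values were used without a log, and their distribution was not checked, so that rate may not hold here. It also does not apply to genes chosen for their pattern. Of the 21, 10 were V genes named for being the highest of a mouse or for their p, and 5 of these (Igkv6-23, Ighv1-26, Ighv1-19, Ighv14-2 and Ighv14-3) were high in a mouse they were named for. The genes also share mice. Each value is given beside the range of the 4 remaining mice of its genotype, in normalized reads unless a percent is named. Vil-Cre 5 was high for Ighm (834, next to 32.7 to 63.7), Ighg2b (412, next to 17 to 54.6), Ighv14-2 (96.2, next to 18 to 39.4) and Ighd (269, next to 2 to 3.28). It was also high for Ighg3 (161, next to 1.09 to 3.74), Ighg1 (126, next to 2.8 to 22.2) and summed B cell markers (2582, next to 35.1 to 107). Vil-Cre 5 was low for Ighv5-17 (10.7, next to 31.3 to 36.1) and Igha percent of heavy constant reads (81.5, next to 99.2 to 99.6). Vil-Cre 4 was high for Iglv1 (395, next to 36.9 to 136), Ighv1-26 (257, next to 33.1 to 92.5) and Igkv5-43 (224, next to 34.1 to 66). Vil-Cre:NDI1 1 was high for Igkv6-23 (773, next to 53.3 to 162), Iglc1 (353, next to 24.7 to 117), Iglv1 (247, next to 25.8 to 78.4) and Ighv1-39 (146, next to 12.8 to 41.1). It was also high for Ighv1-19 (244, next to 27 to 44.1), Ighv1-15 (197, next to 17.3 to 51.9), Ighv1-53 (175, next to 2.73 to 49) and Ighg1 (18.6, next to 0 to 2.94). Vil-Cre:NDI1 5 was high for Ighv14-3 (75.1, next to 6.38 to 23.5).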

How the results depend on the processing

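The count of genes called over all genes, 1 with limma, was 2 with a minimum of 50 and with array weights, 31 with DESeq2, 266 with DESeq2 on 8 libraries, an alternative chosen after seeing the data that leaves out Vil-Cre 3 and Vil-Cre 4, whose reads were recovered as fully as the others', and 1 to 3 without single mice. The count of members, 0 with limma, was 1 with DESeq2 (Igkv6-13) and 2 with DESeq2 on 8 libraries (Igkv6-13 and Igkv4-57-1), and 0 in each fit without 1 mouse. Igkv4-57-1 was highest in Vil-Cre 3, which those 8 libraries leave out. edgeR called 1 gene and 0 members. The members' median log2 fold change was 0.27 and 0.24 with DESeq2 and edgeR on 8 libraries, against -0.31. The cause was not tested. Replicate numbers did not pair the mice, with correlations of -0.12, 0.0024, 0.14, -0.11 and -0.035 for numbers 1 to 5, and with the replicate block 1 gene and 0 members were called.

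Over 24 named genes and 11 alternatives other than leaving out a mouse, 242 of 250 values kept their direction and side of the threshold. Of the rest, 1 moved past the threshold (Igkv6-13 with DESeq2, -3.68) and 7 turned in direction without passing it. The other filters and the replicate block leave the fold change itself unchanged, as for Igha at -0.12. Those settings could therefore move a gene past the threshold but not turn its direction. With DESeq2 the log2 fold change was 0.0094 for Igha, 0.066 for Igkc and 0.11 for Ighv14-2, with edgeR 0.0011, 0.058 and 0.089, and with array weights -0.13 for Ighv5-17. Without 1 mouse, 21 of 240 values turned: the ranges were -0.45 to 0.046 for Igha, -0.49 to 0.059 for Igkc, -0.38 to 0.070 for Jchain, -0.57 to 0.28 for Ighv1-26, -0.69 to 0.025 for Ighv1-81, -0.87 to 0.050 for Ighv1-19, -0.98 to 0.15 for Ighg2b, -0.61 to 0.14 for Ighv14-2, -0.28 to 0.51 for Ighv5-17 and -0.95 to 0.015 for Ighv14-3.

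The summed level in Vil-Cre:NDI1 over Vil-Cre was 0.982 and ranged from 0.685 to 1.13 without single mice. The mean effective number was 28.6 for Ighv and 24.0 for Igkv as the exponential of the Shannon entropy, and 27.9 for Ighv over every row with a read, against 22.2 and 16.4. Without single mice it was 21.7 to 22.9 for Ighv and 15.5 to 17.0 for Igkv, and the lambda share 4.77% to 5.41%. The r of Igha was 0.685 with Derl3 without the 2 farthest mice, and with Ms4a1 it was -0.067, 0.00088 with equal totals outside the members, and -0.15 to 0.58 without single mice. Without single mice r was 0.991 to 0.996 with Jchain, 0.495 to 0.910 with Mzb1, 0.804 to 0.930 with Derl3 and 0.530 to 0.793 with Tnfrsf17. Of the fits without 1 mouse, Mzb1 passed the adjusted threshold without Vil-Cre 5, Tnfrsf17 without Vil-Cre 2 and, by rho alone, without Vil-Cre:NDI1 2 (permutation test, adjusted p = 0.0369), and Pigr by rho alone without Vil-Cre 1. Tnfrsf17 had its lowest value, 1.09, in Vil-Cre 2. Depth limits single V genes, with a median of 242.5 reads per gene over all 10 mice.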
